A study of Mus musculus with 2 samples.

Results

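The AP-1 and immediate early genes examined in these blood cells were 10 genes taken by symbol from the 27998 genes of the count matrices: Fos, Fosb, Jun, Junb, Jund, Atf3, Egr1, Ier2, Dusp1 and Nr4a1. All 10 symbols were found. The study compared blood mononuclear cells of mice with an impaired mevalonate kinase gene, Mvk, with those of controls. The mutant library came from female C57Bl/6 mice aged 10 weeks with the genotype MvkV377I/del91, and the wildtype library from Mvk+/+ females of the same strain and age. Blood of 3 mice was pooled for each genotype, passed over Ficoll, freed of red cells by lysis and sorted for cells negative for DAPI and the red cell antigen Ter119. There was 1 library per genotype, so genotype, mouse pool and library cannot be told apart, no test can be made, and the 95% intervals below cover counting error only.

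Immediate early genes are transcribed within minutes of a stimulus from factors already present in the cell, with no need for new protein. Fos and Jun family proteins pair through leucine zippers to form AP-1, which binds DNA and drives activation programs of lymphocytes and myeloid cells, and several of these genes are also known to respond to the handling and dissociation of cells. Dusp1 encodes a phosphatase that switches off the MAP kinases upstream of AP-1, and Nr4a1 encodes a nuclear receptor that is induced by antigen receptor signalling in lymphocytes and is required for non-classical monocytes in mice.

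The mutant library held 14513059 UMIs (unique molecular identifiers, each standing for 1 captured RNA molecule) and the wildtype library 15385199. Cells were barcodes with at least 800 UMIs, at least 200 genes and at most 10% mitochondrial UMIs, which gave 4190 mutant and 5225 wildtype cells. Of the barcodes, 28 were cells in both libraries, where the product of the cell numbers over the barcode list gives 29.7. A cell was given a type when 1 of 4 marker sets held at least 2 UMIs and at least 75% of the UMIs of all 4 sets, with 2140 mutant and 2638 wildtype T cells, 1254 and 1094 B cells, 182 and 843 natural killer (NK) cells, 101 and 99 monocytes, and 513 and 551 unassigned. Of the marker lists not used for the assignment, each was highest in its own type. The 6 T cell genes reached 2036 CPM (UMIs scaled to a total of 1000000 for the type) in mutant and 2089 CPM in wildtype T cells, against 136 and 130 CPM in B cells. The B cell list, which holds Cd74, was also at 9924 CPM in mutant and 7135 CPM in wildtype monocytes, beside 31447 and 34514 CPM in B cells, and the NK cell list at 1217 and 1467 CPM in T cells, beside 9677 and 10614 CPM in NK cells. Haemoglobin and other erythroid marker UMIs differed far more between the libraries than any member, with 9723 CPM in mutant and 592 CPM in wildtype T cells and 12592 and 292 CPM in B cells; their part in the results was not tested.

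Promoter sequences are shown because response elements close to the start are how these genes are known to be induced. RefSeq (GRCm38.p6) gave the 300 bases from 250 before to 50 after the annotated start for 8 of the 10 genes. For Fosb, Junb, Jund, Atf3, Dusp1 and Nr4a1 this start is not the start of the gene in the GENCODE annotation. The counts of letters below therefore hold for the RefSeq window only. Of these, 5 are printed, 5′ to 3′ on the strand of the gene, for the genes on which the results turn. Capitals mark the core of the cyclic AMP response element, TGACG on either strand, the full element TGACGTCA in Dusp1, and in Jun the AP-1-like letters TGACATCA. They lie on mouse chromosomes 12 (Fos, 85473640 to 85473939), 8 (Junb, 84978699 to 84978998), 4 (Jun, 95052173 to 95052472), 17 (Dusp1, 26508423 to 26508722) and 15 (Nr4a1, 101266596 to 101266895).

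Fos: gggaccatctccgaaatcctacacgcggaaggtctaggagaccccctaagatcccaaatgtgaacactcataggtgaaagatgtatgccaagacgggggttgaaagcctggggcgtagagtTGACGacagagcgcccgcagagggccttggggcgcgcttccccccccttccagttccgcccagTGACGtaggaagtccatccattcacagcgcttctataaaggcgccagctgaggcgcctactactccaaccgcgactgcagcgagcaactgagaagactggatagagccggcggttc

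Junb: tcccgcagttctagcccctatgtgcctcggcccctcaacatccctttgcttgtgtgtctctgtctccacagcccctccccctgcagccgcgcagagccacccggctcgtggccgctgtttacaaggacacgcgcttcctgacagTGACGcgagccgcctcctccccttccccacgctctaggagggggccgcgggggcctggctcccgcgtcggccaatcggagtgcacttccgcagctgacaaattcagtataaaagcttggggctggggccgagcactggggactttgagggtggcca

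Jun: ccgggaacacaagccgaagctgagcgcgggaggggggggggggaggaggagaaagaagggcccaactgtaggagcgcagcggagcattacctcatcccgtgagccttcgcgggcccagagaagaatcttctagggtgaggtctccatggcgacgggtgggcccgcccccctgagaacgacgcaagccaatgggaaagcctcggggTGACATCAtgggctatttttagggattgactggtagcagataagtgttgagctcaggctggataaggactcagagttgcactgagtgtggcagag

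Dusp1: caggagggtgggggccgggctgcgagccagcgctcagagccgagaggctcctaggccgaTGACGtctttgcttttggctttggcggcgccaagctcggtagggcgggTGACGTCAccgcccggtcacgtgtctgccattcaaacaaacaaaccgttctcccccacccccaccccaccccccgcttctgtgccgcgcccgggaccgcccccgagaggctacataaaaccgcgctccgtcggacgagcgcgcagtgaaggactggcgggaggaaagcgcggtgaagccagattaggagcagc

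Nr4a1: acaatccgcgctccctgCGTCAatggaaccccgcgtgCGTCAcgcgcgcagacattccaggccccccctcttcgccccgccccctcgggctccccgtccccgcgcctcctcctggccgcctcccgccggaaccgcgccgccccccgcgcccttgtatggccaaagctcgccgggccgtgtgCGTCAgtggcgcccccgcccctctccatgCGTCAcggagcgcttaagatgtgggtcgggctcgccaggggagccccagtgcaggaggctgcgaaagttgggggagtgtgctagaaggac

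TGACG on either strand was present in 6 of the 8 windows, against 20.8% of all 32851 promoter windows of this length. The Fos window held 2 such cores, Nr4a1 held 4, Junb held 1 and Dusp1 held 3, of which 2 are the overlapping cores of its full element. The full TGACGTCA was in 1 of the 8 windows and in 1.79% of all windows. TGACATCA was in the Jun window alone among the 8, 45 to 38 bases before the start, and in 3.62% of all windows. The AP-1 letters TGANTCA were in none of the 8 windows and in 7.81% of all windows. A match is a description of letters and not a binding site.

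The Fos family members are the partners that cannot pair with each other and need a Jun protein. Fos had 531 UMIs in mutant and 1017 in wildtype T cells, or 110 and 158 CPM, a mutant to wildtype ratio of 0.697 (0.626 to 0.775). In B cells Fos was at 179 CPM in mutant and 235 CPM in wildtype cells, a ratio of 0.762 (0.67 to 0.866). In monocytes it was at 506 and 685 CPM (0.739, 0.596 to 0.915), and in NK cells at 54.1 and 58.3 CPM on 22 and 92 UMIs (0.928, 0.555 to 1.49). Its CPM was thus lower in mutant T cells, B cells and monocytes. In NK cells the interval holds 1, and no mutant Fos was left after subtraction of free RNA at the 36.4% that erythroid markers allow there, against a ratio of 0.917 at the 4.08% that B cell markers allow. In monocytes the share of cells with a Fos UMI went the other way, at 62.4% of mutant (52.2 to 71.8) and 48.5% of wildtype cells (38.3 to 58.7), with medians of 2995 and 2126 UMIs per cell, and at 31.7% and 21.2% after thinning to 800 UMIs by 1 draw. The ratio of these shares was between 1.09 and 1.59 under the 5 alternatives. In classical monocytes, described below, Fos was seen in 72% of 50 mutant cells (57.5 to 83.8). The wildtype value was 89.3% of 28 cells (71.8 to 97.7), so this share was lower in the mutant, as CPM was. In non-classical monocytes it was higher, at 52.2% of 46 mutant (36.9 to 67.1) and 30.2% of 63 wildtype cells (19.2 to 43). In each subset the intervals overlap. The part of the subset mix in the share for all monocytes was not tested. The order of Fos levels was the same in both libraries, monocytes above B cells above T cells above NK cells, with no overlap between neighbouring intervals.

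Fosb, a close relative of Fos, was scarce outside B cells and monocytes. It had 18 UMIs in mutant and 49 in wildtype T cells, or 3.73 and 7.61 CPM, a ratio of 0.49 (0.269 to 0.857). After subtraction of the free RNA profile at the fraction that erythroid markers allow (19.3% in mutant T cells), no Fosb UMIs remained in mutant T cells. At the 4.04% and 3.43% that B cell markers allow, 2.93 CPM was left in mutant and 7.42 CPM in wildtype T cells, a ratio of 0.395. In B cells Fosb went the other way in value, at 38.2 CPM in mutant and 31.1 CPM in wildtype cells, with an interval that holds 1 (1.23, 0.891 to 1.7). Among monocytes it was seen in the classical subset, with 14 mutant and 10 wildtype UMIs, and it had 0 UMIs in the non-classical subset of both libraries.

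The Jun family supplies the partners that can also pair with themselves. Jun was at 409 CPM in mutant and 360 CPM in wildtype T cells (1.14, 1.07 to 1.21) and at 220 and 167 CPM in B cells (1.32, 1.15 to 1.51). In T and B cells as a whole it was thus higher in the mutant library where Fos was lower. The Jun intervals hold 1 in CD4 T cells (1.06, 0.879 to 1.27), in CD8 T cells (1.08, 0.989 to 1.19) and in B cells with Zbtb32 or Bhlhe41 (1.17, 0.891 to 1.55). In B cells with neither, Jun was at 1.33 (1.14 to 1.56), and in those with Vpreb3 and Cd24a at 0.923 (0.603 to 1.43). In NK cells it was at 118 and 120 CPM (0.986, 0.702 to 1.36) and in monocytes at 312 and 286 CPM (1.09, 0.806 to 1.49). Junb, which restrains Jun in several settings, was the member with the most UMIs: 1410 CPM in mutant and 1785 CPM in wildtype T cells (0.79, 0.767 to 0.814), and 1811 and 2396 CPM in B cells (0.756, 0.726 to 0.786). Junb was at 2097 and 2235 CPM in NK cells (0.938, 0.87 to 1.01) and at 1075 and 1377 CPM in monocytes (0.781, 0.674 to 0.906). Jund, the family member that is present in resting cells, was closer to 1 than Junb in T cells, B cells and monocytes and farther from it in NK cells, with ratios of 0.872 in T cells, 0.891 in B cells, 0.816 in NK cells and 0.843 in monocytes, the last with an interval that holds 1 (0.674 to 1.05).

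Because UMIs count molecules and the comparison of members within 1 library does not use the library total, the members were also set against each other. Mutant T cells held 0.269 Fos UMIs per Jun UMI and wildtype T cells 0.439, a ratio of 0.614 (0.543 to 0.694). B cells held 0.813 and 1.4 Fos UMIs per Jun UMI (0.579, 0.48 to 0.698), and monocytes 1.62 and 2.4 (0.677, 0.464 to 0.985). In NK cells the values were 0.458 and 0.487 (0.942, 0.509 to 1.7). The same quantity in free RNA was 0.684 and 0.682 (1, 0.637 to 1.58), an interval that overlaps those of T and B cells. Junb per Jun was lower in mutant T cells (3.45 and 4.96 UMIs per UMI; 0.696, 0.65 to 0.745) and B cells (8.22 and 14.3; 0.574, 0.499 to 0.66), but also in free RNA (5.22 and 7.99; 0.654, 0.482 to 0.889).

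**Figure D1:**
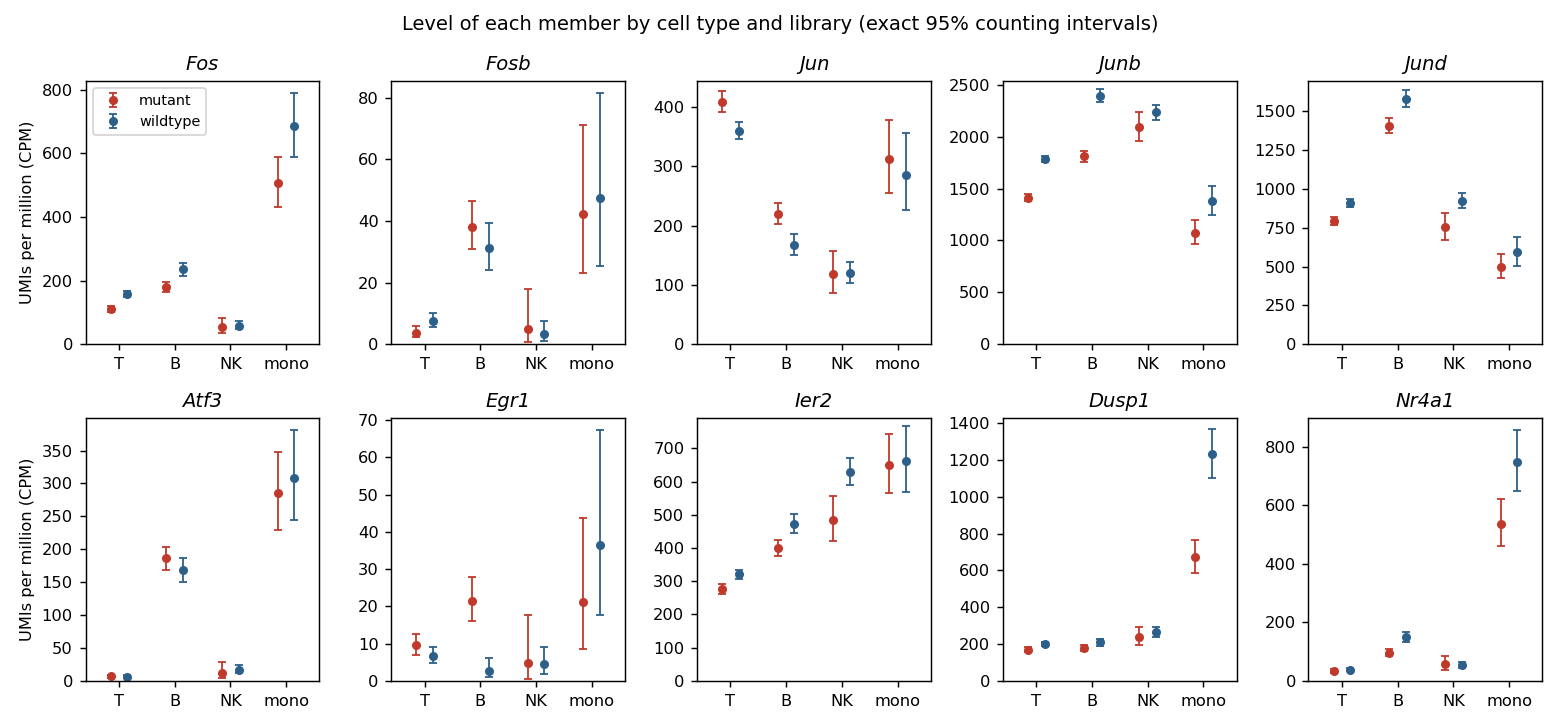
Level of each of the 10 genes in CPM (vertical axis, from 0) in T, B and NK cells and monocytes, mutant in red to the left of wildtype in blue, with exact Poisson 95% intervals. Fos is highest in monocytes in both libraries, Jun highest in T cells, and Egr1 in B cells is 21.4 CPM in mutant and 2.78 CPM in wildtype cells.

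Atf3, a stress-induced repressor that pairs with Jun proteins, separated the cell types most. It was at 285 CPM in mutant and 308 CPM in wildtype monocytes and at 6.84 and 6.68 CPM in T cells. Free RNA at the 19.3% that erythroid markers allow would give 15.1 CPM in mutant T cells, more than was seen there, so the T cell level is not above background by that estimate. At the 4.04% that B cell markers allow it would give 3.17 CPM. By those markers 3.83 CPM was left in mutant and 5.84 CPM in wildtype T cells, a ratio of 0.656. Whether the T cell level is above background therefore depends on the estimate. B cells as a whole had 186 and 168 CPM (1.1, 0.961 to 1.27). Much of the B cell value came from few cells. Those with a UMI of Zbtb32 or Bhlhe41 were 12.1% of mutant and 7.95% of wildtype B cells, with 24.6% and 17.4% of all B cell UMIs, and held 65.2% and 69.4% of the Atf3 UMIs. In them Atf3 was at 492 CPM in mutant and 673 CPM in wildtype cells (0.732, 0.618 to 0.868). In the remaining B cells it was at 85.7 and 62.3 CPM (1.38, 1.08 to 1.77), the opposite direction. Free RNA held Atf3 at 78.4 CPM in the mutant and 30.4 CPM in wildtype (2.58, 1.33 to 5.25). With free RNA subtracted at the fraction that erythroid markers allow, the ratio was 0.996 in the cells with Zbtb32 or Bhlhe41 and 1.34 in the other B cells; with T cell markers the ratios were 0.68 and 1.32. The cells with Zbtb32 or Bhlhe41 also held 96 platelet marker UMIs in mutant blood against 0 in wildtype blood, and the part of these in the result was not tested.

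Egr1, a zinc finger factor that is a sensitive marker of receptor signalling, had the largest ratio of the 10 genes. It had 55 UMIs in 40 of 1254 mutant B cells and 6 UMIs in 6 of 1094 wildtype B cells, or 21.4 and 2.78 CPM, a ratio of 7.7 (3.32 to 21.9). The share of B cells with an Egr1 UMI was 3.19% (2.29 to 4.32) in mutant and 0.548% (0.202 to 1.19) in wildtype cells, beside 1.1% and 0.712% in NK cells, with median depths of 1592 and 1580 UMIs in B cells and 2032 and 1675 in NK cells. The mutant B cells with Egr1 were deeper than the other B cells, with a median of 2426.5 UMIs. They were spread over the B cells: 7 of the 40 held Zbtb32 or Bhlhe41 and 6 held both Vpreb3 and Cd24a. CD8 T cells had 23 mutant and 12 wildtype Egr1 UMIs (2.88, 1.38 to 6.36) and CD4 T cells 3 and 9 (0.437, 0.0761 to 1.75), both under the minimum of 50 UMIs, and T cells as a whole 9.54 and 6.68 CPM (1.43, 0.922 to 2.22). In unassigned cells Egr1 was at 16.1 CPM in mutant and 27.7 CPM in wildtype cells (0.581, 0.326 to 1.01). The wildtype B cell level, on 6 UMIs, was the lowest of the cell types in that library, with an interval that overlaps that of NK cells. Free RNA held Egr1 at 17.7 CPM in the mutant and 13 CPM in wildtype, on 7 and 6 UMIs. The B cell ratio was 3.32 in 1 draw of 800 UMIs per cell. It was 12.1 after subtraction of free RNA by erythroid markers and 14.3 by T cell markers, which left 1.87 and 1.54 CPM in wildtype B cells. Leaving out every cell with an erythroid UMI kept 18 of 1254 mutant B cells, in which there was no Egr1 UMI.

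**Figure D2:**
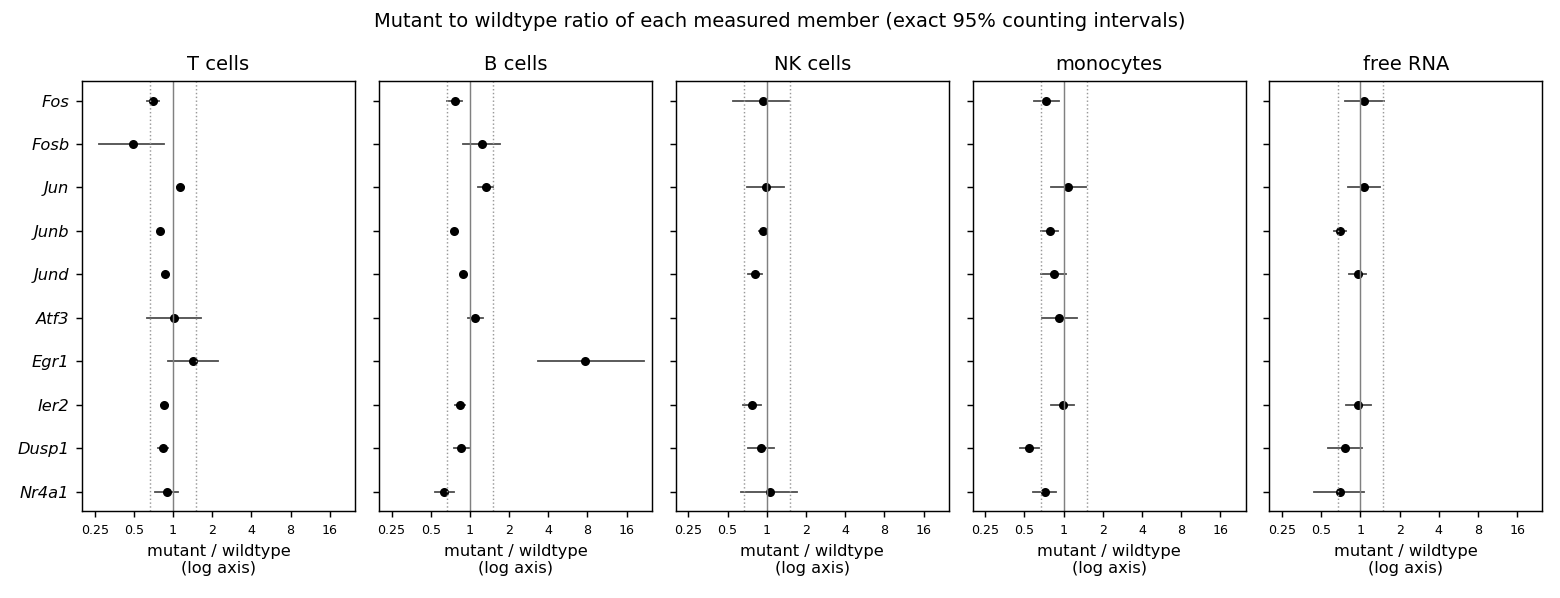
Mutant to wildtype ratio of each measured gene (at least 50 UMIs over both libraries) in the 4 cell types and in free RNA, on a log axis, with exact 95% intervals, a solid line at 1 and dotted lines at 1.5-fold either way. Egr1 in B cells stands apart at 7.7; Junb is below 1 in free RNA (0.697) as in T cells (0.79) and B cells (0.756).

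Ier2, an early gene with a poorly defined nuclear role, was at 276 CPM in mutant and 321 CPM in wildtype T cells (0.86, 0.802 to 0.922), 400 and 473 CPM in B cells (0.845, 0.774 to 0.923) and 485 and 629 CPM in NK cells (0.771, 0.658 to 0.899). In monocytes it was at 651 and 663 CPM (0.983, 0.803 to 1.2). Dusp1 was at 170 and 202 CPM in T cells (0.843, 0.772 to 0.921), 180 and 209 CPM in B cells (0.862, 0.755 to 0.984) and 239 and 264 CPM in NK cells (0.903, 0.716 to 1.13), and at 673 and 1230 CPM in monocytes (0.547, 0.459 to 0.65). Nr4a1 was at 95 CPM in mutant and 149 CPM in wildtype B cells (0.636, 0.537 to 0.754), 536 and 747 CPM in monocytes (0.718, 0.584 to 0.882), 33.6 and 37.6 CPM in T cells (0.894, 0.728 to 1.09) and 56.6 and 53.3 CPM in NK cells (1.06, 0.639 to 1.7).

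Read against all measured genes, few members were far from 1. Below the minimum of 50 UMIs were Fosb, Atf3 and Egr1 in NK cells (7, 32 and 9 UMIs over both libraries) and Fosb and Egr1 in monocytes (27 and 17). Past 1.5-fold higher in the mutant library were 0 of 10 measured members in T cells (2.31% of all measured genes), 1 of 10 in B cells (3.43%), 0 of 7 in NK cells (3.93%) and 0 of 8 in monocytes (6.29%). Past 1.5-fold lower were 1 of 10 in T cells (2.54%), 1 of 10 in B cells (2.74%), 0 of 7 in NK cells (9.50%) and 1 of 8 in monocytes (6.67%). These 4 were Egr1 and Nr4a1 in B cells, Fosb in T cells and Dusp1 in monocytes. The median log2 ratio of the measured members was -0.21 in T cells, -0.19 in B cells, -0.09 in NK cells and -0.30 in monocytes, beside 0.01, 0.01, -0.05 and -0.03 over all measured genes. The summed members were at 3221 CPM in mutant and 3792 CPM in wildtype T cells (0.849, 0.832 to 0.867), and the free RNA of the libraries, in barcodes with at most 20 UMIs, gave 3282 and 3913 CPM (0.839, 0.781 to 0.901). Free RNA therefore differed between the libraries by about as much as the cells in this sum. Junb made up 512 of the 1298 mutant and 855 of the 1802 wildtype free UMIs, at a ratio of 0.697 (0.624 to 0.779). The intervals of the other members with at least 50 UMIs in free RNA hold 1. These were Nr4a1 (0.691), Dusp1 (0.757), Jund (0.951), Ier2 (0.963), Jun (1.07) and Fos, at 169 and 158 CPM (1.07, 0.756 to 1.51). The part of free RNA in the cell values was not tested.

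Within monocytes the lower values lay in the classical subset, which was set apart by Ly6c2, Ccr2, Chil3, F13a1 and Fn1 and held 50 mutant and 28 wildtype cells. In it Dusp1 was at 623 CPM in mutant and 1675 CPM in wildtype cells (0.372, 0.295 to 0.467), Fos at 590 and 1225 CPM (0.481, 0.375 to 0.618), Junb at 1099 and 1851 CPM (0.593, 0.49 to 0.719) and Nr4a1 at 295 and 529 CPM (0.557, 0.385 to 0.809). In the 46 mutant and 63 wildtype non-classical cells the intervals of all these hold 1: Dusp1 was at 776 and 908 CPM (0.855, 0.637 to 1.14), Fos at 350 and 267 CPM (1.31, 0.803 to 2.14), Junb at 1003 and 1053 CPM (0.953, 0.732 to 1.24) and Nr4a1 at 1031 and 969 CPM (1.06, 0.816 to 1.39). The difference between the subsets was not tested. Nr4a1 was higher in non-classical than in classical monocytes in both libraries. Non-classical cells held 105694 of the 330097 mutant and 131080 of the 273146 wildtype monocyte UMIs. The part of this mix in the ratios of monocytes as a whole was not tested. Without the classical cell with the most Dusp1 UMIs in each library, Dusp1 was still lower (0.427, 0.333 to 0.546).

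The classical cells also carried UMIs of other cells. Platelet markers (5 genes) were at 1774 CPM in mutant and 838 CPM in wildtype classical monocytes and seen in 42 of 50 and 20 of 28 cells, and the dendritic markers Siglech, Cd209a and Flt3 were at 590 and 247 CPM. Leaving out monocytes with any such UMI, an alternative added after the values were seen, kept 45 mutant and 66 wildtype cells and gave 0.83 for Dusp1, 1.25 for Fos, 2.15 for Jun and 0.995 for Junb, but kept 8 mutant and 5 wildtype classical cells. In those few, Dusp1 was at 522 and 689 CPM on 16 and 12 UMIs (0.758, 0.337 to 1.76), an interval that holds 1, Fos on 12 and 17 UMIs (0.401, 0.175 to 0.892) and Junb at 816 and 1837 CPM on 25 and 32 UMIs (0.444, 0.252 to 0.774). Requiring 3 marker UMIs and none of the other sets gave 0.77 for Dusp1 in monocytes, which is short of 1.5-fold, and in 1 draw of 800 UMIs per cell the Fos ratio in monocytes was 1.01.

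**Figure D3:**
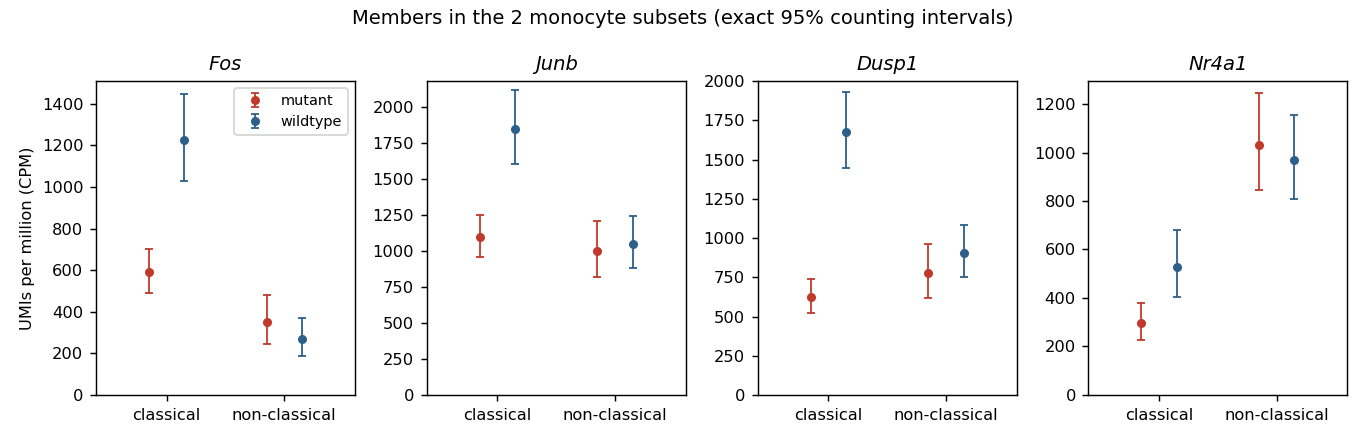
Fos, Junb, Dusp1 and Nr4a1 in CPM (vertical axis, from 0) in classical and non-classical monocytes, mutant in red to the left of wildtype in blue, with exact Poisson 95% intervals. In classical cells every mutant value lies below the wildtype value, as for Dusp1 with 623 against 1675 CPM, while in non-classical cells the intervals overlap.

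B cells with both Vpreb3 and Cd24a, which mark recent arrivals from the bone marrow, numbered 181 in mutant blood and 116 in wildtype blood. They had Junb at 1083 CPM in mutant and 2036 CPM in wildtype cells (0.532, 0.466 to 0.607) and Ier2 at 258 and 425 CPM (0.606, 0.455 to 0.806). Their Fos was at 152 and 147 CPM (1.04, 0.672 to 1.62), so that Junb and Fos did not go together there. CD4 T cells had Junb at 1510 and 2056 CPM (0.734, 0.673 to 0.801) and CD8 T cells at 1299 and 1523 CPM (0.853, 0.816 to 0.893).

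**Figure D4:**
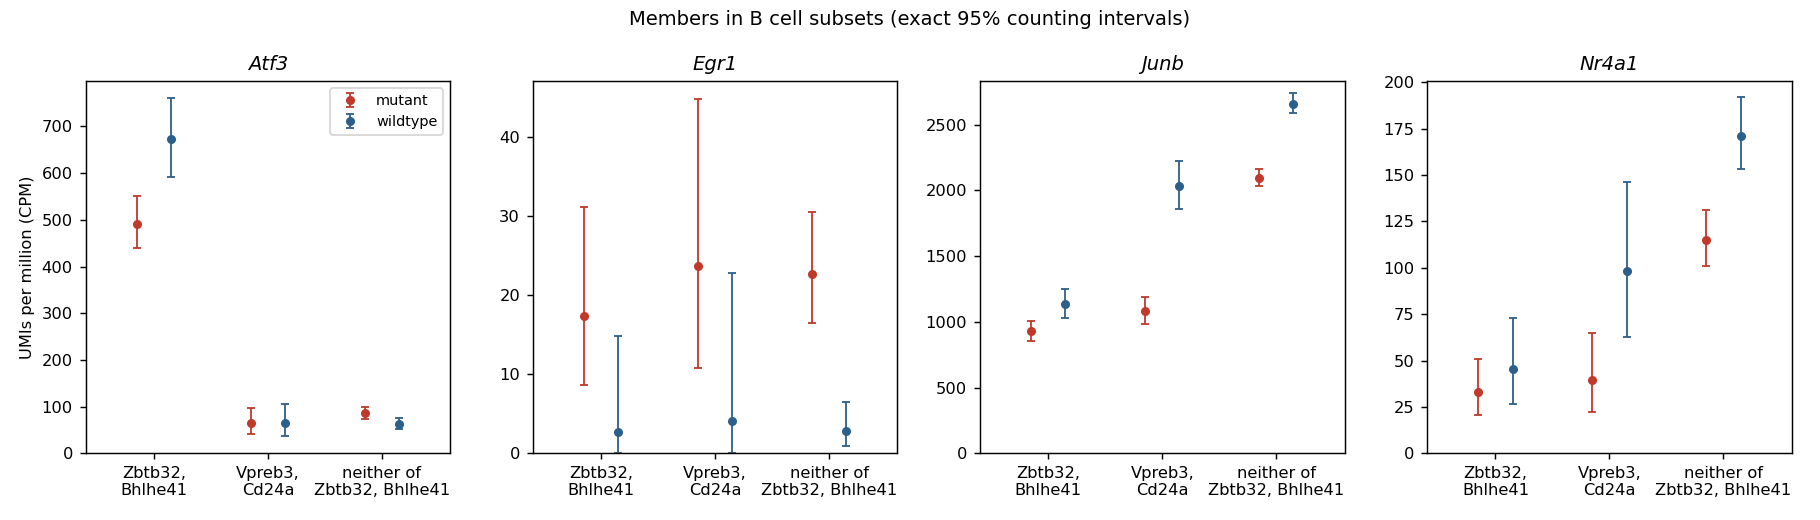
Atf3, Egr1, Junb and Nr4a1 in CPM (vertical axis, from 0) in B cells with a UMI of Zbtb32 or Bhlhe41, in B cells with both Vpreb3 and Cd24a, and in B cells with neither Zbtb32 nor Bhlhe41, mutant in red to the left of wildtype in blue, with exact Poisson 95% intervals; the second group overlaps the others. Atf3 is concentrated in the first group, at 492 CPM in mutant and 673 CPM in wildtype cells.

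Members were next followed within single cells thinned to 800 UMIs by 1 random draw. The mean number of members seen per cell was 1.71 in mutant and 1.9 in wildtype T cells, 2.09 and 2.36 in B cells, 1.83 and 2.03 in NK cells and 2.48 and 2.9 in monocytes. At least 4 members were seen in 13.3% of mutant (11.5 to 15.3) and 18.4% of wildtype B cells (16.1 to 20.8). Of 81 ordered pairs of members in B cells, 60 had the first member in a larger share of the cells with the second than of those without it in both libraries. The median difference over all pairs was 3.61 percentage points in mutant and 3.37 in wildtype cells. Most pairs were counted in both orders, which always have the same direction, so the 81 are not separate outcomes. The pairs with the larger differences included Fos with Fosb and Junb with Nr4a1. Fos was seen in 33.3% of mutant B cells with Fosb (9 of 27) and 12.7% of those without, and in 42.9% of wildtype B cells with Fosb (9 of 21) and 15.8% of those without. Junb was seen in 80% of mutant B cells with Nr4a1 and 65.1% of those without, and in 91% of wildtype B cells with Nr4a1 and 74% of those without. Junb was seen in 64.1% of the 64 mutant B cells with Atf3 and 66.3% of those without, a small gap on few cells. In wildtype B cells it was seen in 63% of the 54 with Atf3 and 76.7% of those without. The B cells with Zbtb32 or Bhlhe41, which held most Atf3 UMIs, had Junb at 931 CPM in mutant and 1137 CPM in wildtype cells. The other B cells had 2098 and 2661 CPM, and the part of this mix of cells was not tested. Co-detection was weaker or less regular in the other types. The first member was in a larger share in both libraries for 44 of 63 ordered pairs in T cells. This held for 16 of 36 in NK cells and 24 of 54 in monocytes. The median differences in mutant and wildtype cells were 1.26 and 1.34 points in T cells and 0.751 and 0.591 in NK cells. In monocytes they were 1.92 and 3.62 points. Cells thinned to 1 depth can still differ in how much of their RNA these genes take up, and co-detection is a description.

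The genes whose thinned UMIs went most with the summed members, by the mean Pearson correlation over the 8 groups of type and library among 811 genes, included Klf2 (0.196), Btg2 (0.128), H3f3b (0.113) and Klf6 (0.104). All of these correlations are weak. Of the wider lists, other immediate early genes had 27 of 34 measured in T cells, of which 1 was past 1.5-fold higher (Trib1, a pseudokinase, 1.85, 1.09 to 3.19, on 36 and 26 UMIs) and 0 lower, with a median log2 ratio of 0.01. Trib1 in free RNA was at 27.8 CPM in the mutant and 6.51 CPM in wildtype, and its T cell ratio was 0.736 after subtraction by erythroid markers and 1.67 by B cell markers. In B cells 26 were measured and 0 were past 1.5-fold. Among the other AP-1 and bZIP partners, 2 of 11 measured in T cells were past 1.5-fold higher (2.31% of all measured genes) and 0 lower. In B cells 1 of 9 was past it higher (3.43%), and in NK cells 0 of 6 either way. In monocytes 1 of 3 was higher (6.29%) and 2 were lower (6.67%). Cebpb, a myeloid factor, was at 17.6 CPM in mutant and 7.3 CPM in wildtype T cells (2.41, 1.67 to 3.52). Its T cell ratio was 12.8 after subtraction by erythroid markers, which left 0.953 CPM in wildtype, and 2.7 by B cell markers. In B cells it was at 35.8 and 13.5 CPM (2.66, 1.74 to 4.2), or 3.07 and 3.4 after subtraction by erythroid and T cell markers. In monocytes it was at 703 and 399 CPM (1.76, 1.4 to 2.23), while Atf4 (0.504, 0.303 to 0.823) and Nfe2l2 (0.611, 0.412 to 0.901) were lower. Of the heat shock genes, 8 of 9 measured were above 1 in T cells and 8 of 9 in B cells, where 51.4% and 51.7% of all measured genes were, with Hsph1 at 1.72 and 1.94. In NK cells 6 of 9 were above 1, beside 40.4% of all measured genes, and in monocytes 2 of 6, beside 46.3%. The median log2 ratio of the list was 0.20 in T cells, 0.33 in B cells, 0.10 in NK cells and -0.06 in monocytes.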

How the data were processed

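The authors deposited raw UMI counts per gene and barcode from 10x Chromium 3′ v2 libraries, whole numbers for 27998 genes and 737280 barcodes in each of 2 libraries. Reads were processed with Cell Ranger 2.1.1 on mm10, per the submitters' processing notes. How reads shared by near-identical genes were counted is not given in the sources used here.

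UMIs were summed over the cells of a type in each library and given as CPM with exact Poisson intervals. Mutant to wildtype ratios have exact conditional Clopper-Pearson intervals, and shares of cells exact Clopper-Pearson intervals, all at 95%. PCR error, pooling error and spread between cells are not covered. A gene was measured with at least 50 UMIs over both libraries, and a ratio of 1.5-fold either way was the size rule. The named genes were all 10 members, up to 2 genes at each end of each list, and the genes most correlated with the members, of which 1 is not reported here. The members and lists were chosen with earlier results of these data known. Interval coverage was checked on simulated Poisson counts only. That is the model behind the intervals, so the check cannot speak to UMIs that are clumped in single cells. Shares after thinning to 800 UMIs came from 1 seeded draw. During the analysis these were briefly replaced by their expectation over all draws, after the draw's values had been seen; the draw was restored as the reported value, and the expectation is given as an alternative. Added once the values had been seen were 4 alternatives: leaving out cells with platelet or dendritic UMIs, leaving out cells with erythroid UMIs, a free RNA fraction from markers of another lineage, and the expected share. Free RNA was also subtracted, after the values were seen, for single genes and for the B cell subsets. Cells scored above 0.2 by Scrublet (scanpy 1.11.5), 69 mutant and 133 wildtype, were left out in 1 alternative. Python 3.11.15, numpy 2.4.6 and scipy 1.17.1 were used.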

Additional observations from a re-analysis of the deposited data

Results flagged for a closer look

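Atf3 in B cells had ratios on opposite sides of 1 in 2 groups of cells: 0.732 (0.618 to 0.868) in B cells with a UMI of Zbtb32 or Bhlhe41 and 1.38 (1.08 to 1.77) in the other B cells. Both counting intervals leave out 1. The difference between the groups was not tested. Free RNA held Atf3 at 78.4 CPM in the mutant and 30.4 CPM in the wildtype library (2.58, 1.33 to 5.25). Subtracted at the fraction that erythroid markers allow in the same cells (35.3% and 6.98% in the first group, 21.6% and 8.45% in the other B cells), it left ratios of 0.996 and 1.34; by T cell markers it left 0.68 and 1.32. The opposite directions therefore depend on the estimate of free RNA. Comparing subsets of a type in this way was decided after these Atf3 values had been seen; over the 4 cell types alone no member was on opposite sides of 1 with both intervals off it. In all, 32 comparisons of a member between types or subsets were looked at, with no correction for their number.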

How the results depend on the processing

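Of the 35 measured ratios of a member in a cell type, 4 were past 1.5-fold as reported. The number was 8 in 1 draw of 800 UMIs per cell, 8 after subtraction of free RNA at the fraction that erythroid markers allow, and 18 without cells with erythroid UMIs, a setting that left 18 mutant B cells, 3 mutant NK cells and 0 mutant monocytes; under the other settings it was 4 or 5. In that last setting the Egr1 ratio in B cells was 0. For shares of cells with a UMI, 8 ratios were past 1.5-fold in the reported draw, 3 without thinning, 4 in cells of at least 1500 UMIs thinned to 1500, 3 without cells above the Scrublet score, and 3 as the share expected over all draws, so this number depends on the draw. Fos in NK cells had a ratio of shares of 0.579 in the draw, against 1.08 without thinning, 1.05 at 1500 UMIs and 1.39 without high Scrublet scores. Dusp1 in monocytes had 0.584, against 1.05 without thinning and 1 at 1500 UMIs, and Nr4a1 in NK cells had 1.54, against 0.569 with the stricter marker rule. The causes were not tested. Over all alternatives 394 of 447 single ratios and 165 of 174 ratios of shares stayed within the counting interval of the reported value, while 52 ratios and 3 ratios of shares left it and 1 ratio and 6 ratios of shares were reversed; the reversed values are those given above. No paired analysis was possible because there was 1 library per genotype.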

Other observations

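In NK cells no member was past 1.5-fold. Of the 20 measured other immediate early genes there, 2 were past 1.5-fold lower in the mutant library. This share is close to the 9.50% of all measured genes. Of the 20, 14 were below 1 and 6 above it, where 40.4% of all measured genes were above 1. Rgs1, which dampens G protein signalling, was at 394 CPM in mutant and 639 CPM in wildtype NK cells (0.616, 0.518 to 0.728), and Nr4a2, a relative of Nr4a1, at 64 and 103 CPM (0.623, 0.395 to 0.946). In monocytes Rgs1 was at 221 CPM in the mutant and 76.9 CPM in the wildtype library (2.88, 1.75 to 4.92). It was the 1 of 20 measured genes of this list past 1.5-fold higher there, beside 6.29% of all measured genes. Past 1.5-fold lower was 1 of the 20 (Dusp5, 0.587), beside 6.67%. Free RNA held Rgs1 at 124 CPM in the mutant and 239 CPM in wildtype. Dendritic markers in monocytes were at 397 and 143 CPM, and the part of these in the Rgs1 value was not tested.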
